A study of Mus musculus with 10 samples.

Results

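Germline genes that are kept silent in somatic tissue were followed in the frontonasal prominence, from which the forehead and nose of the embryo develop. The set holds 10 genes, Dazl, Ddx4, Mael, Sycp3, Tex101, Sohlh2, Slc25a31, Asz1, Stk31 and Hormad1, of the 35542 genes in the count table. They were taken by symbol, and no minimum count was applied to them. Mouse embryos of the FVB/NJ strain were dissected at E10.5, and 4 libraries came from Smchd1 MD1/MD1 animals (MD1) and 6 from Smchd1 WT/WT animals (WT). MD1 is MommeD1, a nonsense allele of Smchd1 carried in every cell of the embryo, and no other allele or treatment is named for either group. By their labels the MD1 libraries are 2 females and 2 males, and the WT libraries are 3 females and 3 males. Whether each library is a separate embryo is not stated, so a p-value measures only the spread between these libraries.

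In most somatic cells such genes are shut off early in development. Their promoters are rich in CpG sites, which gain DNA methylation around implantation, and the Polycomb complex PRC1.6 binds many of them through E2F6 and through the MGA and MAX proteins, which recognise an E-box. Primordial germ cells lose this methylation and switch the genes on as they prepare for meiosis. Smchd1 is a chromatin protein needed for silencing of the inactive X and of several autosomal gene clusters. The comparison asked whether the germline set was released where Smchd1 is lost. Methylation was not measured in these libraries, so the set is described by its RNA and by its reference sequence.

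The promoters of the members share a sequence composition. The members were taken by symbol, but CpG-rich promoters bound through E2F6 and an E-box are part of how this class is described. The shares below are thus a description of the class and not an independent result. In the RefSeq promoter windows (GRCm38.p6, 250 bases before to 50 after the transcription start) all 10 members were matched. They held 15 to 38 CpG sites with a median of 23, against a median of 7 over the windows of 27025 genes, of which 35.2% reached 15. On either strand, the E2F6-type motif TTCCCGC was present in 4 of the 10 members, against 4.67% of all windows and 10.4% of windows with at least 15 CpG sites. The E-box CACGTG was present in 6 of 10, against 7.24% of all windows and 11.5% of the CpG-rich ones. Ddx4, Sycp3, Slc25a31 and Hormad1 held both motifs, which occurred together in 0.459% of all windows and 1.09% of the CpG-rich ones. Among 49 windows of other germline genes, 22.4% held the E2F6-type motif, 26.5% the E-box and 4.08% both. The letters of the 2 motifs can overlap by 1 base, though no match in a member did, and a match of letters is a description and not evidence of binding.

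The stretches below carry the motifs of those 4 genes, in capitals, read 5′ to 3′ along the gene. Sycp3 and Hormad1 are shown as 1 upstream stretch each, and for Ddx4 and Slc25a31 a short stretch is given around each motif, because part of the window lies inside a first exon of the GENCODE annotation.
Sycp3, chr10:88459428-88459561, plus strand: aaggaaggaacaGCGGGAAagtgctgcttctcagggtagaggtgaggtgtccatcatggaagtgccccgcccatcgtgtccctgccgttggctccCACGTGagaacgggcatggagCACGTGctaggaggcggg
Hormad1, chr3:95559570-95559674, plus strand: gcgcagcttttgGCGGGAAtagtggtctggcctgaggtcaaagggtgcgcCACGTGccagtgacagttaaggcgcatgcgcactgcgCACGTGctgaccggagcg
Ddx4, E2F6-type motif, chr13:112652430-112652456, minus strand: cgtccatgggGCGGGAAgtcgcgcgcc
Ddx4, E-box, chr13:112652324-112652349, minus strand: cgtccgcccgCACGTGcagccgttta
Slc25a31, E-box, chr3:40708766-40708795, plus strand: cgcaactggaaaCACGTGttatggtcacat
Slc25a31, E2F6-type motif, chr3:40708880-40708906, plus strand: agcgcccgctTTCCCGCcagggtaaag

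Sycp3 and Hormad1 each hold the E-box at 2 places, at positions -64 and -43 of Sycp3 and at -57 and -20 of Hormad1, counted from the transcription start. In Slc25a31 the E2F6-type motif begins 20 bases into the transcript. Mael and Stk31 held the E-box alone. Dazl, Tex101, Sohlh2 and Asz1 held neither motif in this window. The Tex101 window (chr7:24672001-24672300) lies inside the gene in GENCODE, whose 5′ end is at 24676675, so that start was not covered. Dazl is shown for its CpG sites, in capitals, of which its whole window has 28.
Dazl, chr17:50293637-50293760, minus strand: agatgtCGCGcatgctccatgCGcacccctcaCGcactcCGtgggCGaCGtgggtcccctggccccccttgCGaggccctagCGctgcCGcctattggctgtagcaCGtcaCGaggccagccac

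**Figure D1:**
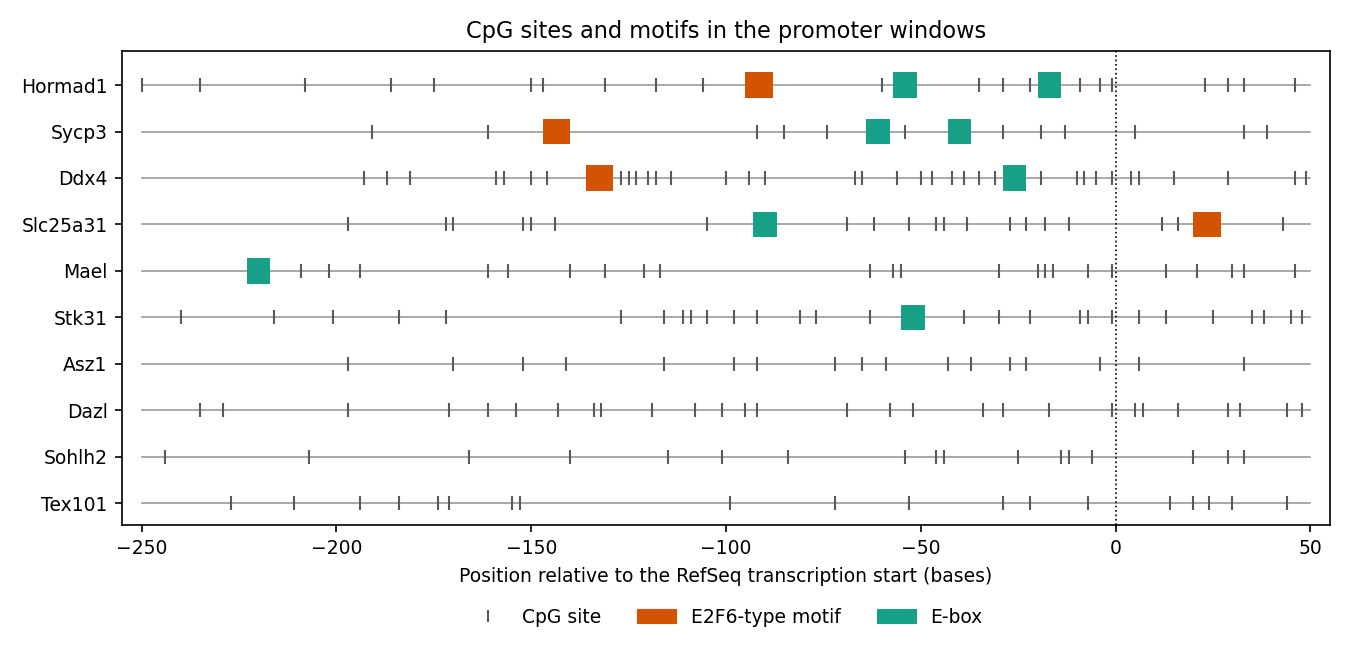
Positions of CpG sites (ticks), E2F6-type motifs (orange) and E-boxes (green) in the promoter windows of the 10 members, in bases from the RefSeq transcription start; each motif holds a CpG that its bar covers. The 4 genes at the top carry both motifs, Mael and Stk31 carry the E-box alone, and every window has at least 15 CpG sites.

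Depth and tissue were checked before the genes. The libraries held 4195119 to 20661292 counts in MD1, 49054544 in all, and 9225452 to 24125084 in WT, 97173568 in all. Levels are given as CPM, the counts of a gene per 1000000 of the TMM-scaled library size. Markers of frontonasal mesenchyme (8 genes) summed to 868 to 1412 CPM in MD1 and 1188 to 1668 CPM in WT. Of 6 markers of primordial germ cells, Dppa3 and Prdm14 had 0 reads in every library, Pou5f1 had 1 read in all and Nanog had 0 to 1 reads in MD1 and 0 to 7 in WT. Dnd1, with 7 to 44 reads in MD1 and 23 to 70 in WT, and Nanos3, with 1 to 23 reads in MD1 and 7 to 20 in WT, made up most of the list, which summed to 1.29 to 3.23 CPM in MD1 and 2.84 to 5.16 CPM in WT. The library labelled MD1 female replicate 1 had 290 CPM of 4 Y-linked genes, against 257 to 286 CPM in WT males and 0 in WT females, so its label goes against its reads. This library and MD1 female replicate 4 had 318 and 82.7 CPM of yolk sac endoderm markers, against 0.241 and 0.498 CPM in the other MD1 libraries and 0.472 to 26.4 CPM in WT. MD1 female replicate 4 also had 6977 CPM of hypoxia response genes, where the other MD1 libraries had 504 to 1480 CPM and WT 416 to 1353 CPM. Its erythroid markers summed to 19172 CPM, against 2519 to 4073 CPM in the other MD1 libraries and 2867 to 4107 CPM in WT, and its forebrain markers to 469 CPM, against 270 to 345 CPM in the other MD1 libraries and 215 to 368 CPM in WT.

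Smchd1 checked the genotype labels. It stood at 55.3, 99.8, 67.1 and 91.8 CPM in MD1 replicates 1 to 4, against 229 to 265 CPM in WT with a median of 247. The 2 genotypes did not overlap. The log2 fold change was -1.65 (SE 0.15, edgeR adjusted p = 0.000746).

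The germline set stayed at or near 0 in both genotypes, apart from Sycp3, whose reads may not all be its own. None of the 10 genes was called higher or lower in MD1 by the quasi-likelihood test of edgeR at an adjusted p of 0.05. Over all autosomal genes, 0.0777% were called (12 of 15452 genes past the filter on low counts), and 0.0481% with no filter (11 of 22864 genes). Sycp3 was the only member to pass the filter, 5 more had at least 1 read and were tested without it, and 4 had no read and could not be tested. Of the 6 tested, 0 had an unadjusted p under 0.05, and DESeq2 and limma-voom called 0 members too. Mael and Stk31 had at most 3 reads in either group, too few for this test to decide. In each of the 6 genes with reads the ranges of MD1 and WT overlapped, for Mael and Stk31 only at 0 reads, whereas 1.54% of autosomal genes with a count (352 of 22864) had ranges that did not overlap. With so small a background, a count of 0 among 6 tested genes does not set the members apart from other genes.

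All members together took 341 reads of the 10 libraries, 100 in MD1 and 241 in WT. Sycp3 supplied 74.2% of them. Without Sycp3, 23 reads were left in MD1 and 65 in WT, at 0.0760 to 0.996 CPM in MD1 libraries and 0.322 to 0.962 CPM in WT libraries. The highest and the lowest of all libraries were thus both MD1.

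Of the members, 4 of 10 (40.0%) had no read in any library, against 20.7% of the 20743 autosomal protein-coding genes (4288 genes) and 13 of 59 other germline genes (22.0%). They were Tex101 (ENSMUSG00000062773, chr7:24668007-24676675, minus strand), a surface glycoprotein of testicular germ cells needed for fertile sperm, Sohlh2 (ENSMUSG00000027794, chr3:55182028-55209957, plus strand), a helix-loop-helix factor of early spermatogonia and oocytes, Asz1 (ENSMUSG00000010796, chr6:18050964-18109061, minus strand), an ankyrin repeat protein of the piRNA pathway, and Hormad1 (ENSMUSG00000028109, chr3:95559677-95587671, plus strand), which marks unsynapsed chromosome axes in meiosis. A count of 0 over a group allows up to 3 reads, which is 0.0620 CPM over the 4 MD1 libraries and 0.0305 CPM over the 6 WT libraries. Per kilobase of exon these limits came to 0.0262 RPKM in MD1 and 0.0129 RPKM in WT for Sohlh2, and to 0.0374 RPKM in MD1 and 0.0184 RPKM in WT for Tex101. Limits and intervals cover counting error only, and a level below them was not detectable at this depth. In whole tissue, fewer cells with a transcript and less transcript per cell cannot be told apart.

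**Figure D2:**
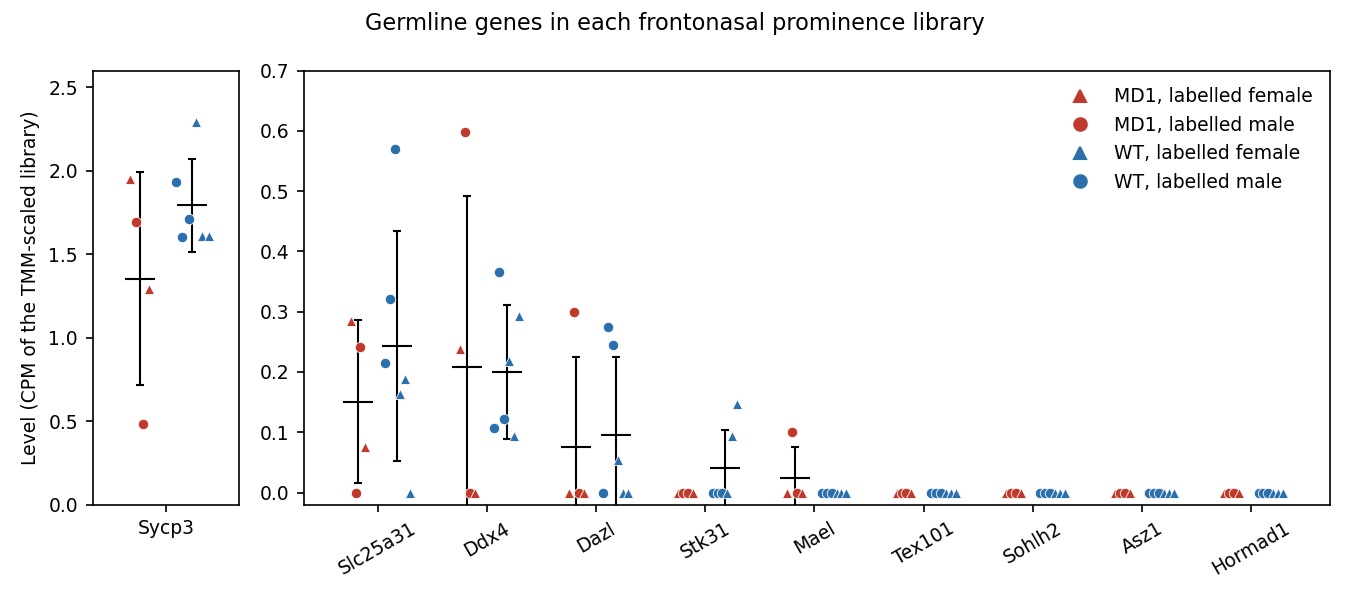
Level of each member in CPM in each library, MD1 left (red) and WT right (blue), triangles for libraries labelled female and circles for male, with mean and SD (n = 4 and 6); Sycp3 has its own axis. Sycp3 lies between 0.483 and 2.29 CPM, and the other members lie at or under 0.598 CPM.

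Among genes of germ cell identity, Dazl encodes an RNA-binding protein needed for entry into meiosis. It lies on the minus strand of chromosome 17 (ENSMUSG00000010592, chr17:50279395-50293636). MD1 replicates 1 to 4 had 0, 3, 0 and 0 reads, and WT libraries had 0 to 6 reads with a median of 0.5, 13 in all. All MD1 reads came from male replicate 2, and the WT reads came from male replicates 2 and 3, with 6 each, and female replicate 4, with 1. By label, 15 of the 16 reads lay in male libraries, which held 47.6% of the depth, and these came from 3 libraries. For Slc25a31 it was 24 of 36, for Ddx4 18 of 32 and for Sycp3 114 of 253. The library labelled MD1 female replicate 1, with its Y-linked reads, had 0 reads of Dazl, 6 of Slc25a31, 5 of Ddx4 and 41 of Sycp3. It is counted as female here. Counted as male, it would raise the 47.6% of depth and the male counts of those other genes. The pooled ratio of MD1 to WT was 0.469 with a 95% counting interval of 0.0857 to 1.71, and the edgeR log2 fold change of -0.61 had an adjusted p of 0.856. Single libraries set its size: it was -3.89 without MD1 replicate 2, -0.03 without MD1 replicate 1, -0.21 without MD1 replicate 4, -0.08 without WT replicate 2 and -0.16 without WT replicate 3.

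Ddx4, the mouse Vasa, is an RNA helicase of the germ cell cytoplasm (ENSMUSG00000021758, chr13:112598333-112652475, minus strand). It had 5, 6, 0 and 0 reads in MD1 replicates 1 to 4, against 1 to 8 reads in WT with a median of 3.5. Every WT library had a read, and of the MD1 libraries male replicate 3, the shallowest, and female replicate 4 had none. Its level was 0.209 ± 0.282 CPM in MD1 and 0.200 ± 0.112 CPM in WT (SD, n = 4 and 6). The pooled ratio was 1.06, with a counting interval of 0.463 to 2.31, and the log2 fold change was 0.12 (edgeR adjusted p = 0.967). That sign is not stable, since without MD1 male replicate 2 the log2 fold change was -0.85, and without WT replicate 3 or 5 it was -0.0064 or -0.00054.

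Of the piRNA pathway, which silences transposons in the germline, Asz1 was at 0 and Mael, the mouse Maelstrom, had 1 read (ENSMUSG00000040629, chr1:166201201-166238747, minus strand). That read lay in MD1 male replicate 2, and the 6 WT libraries had 0. Both groups were under the limit of 3 reads, so no fold is given. Stk31, a Tudor domain protein of male germ cells, had 0 reads in MD1 and 3 in WT, 1 in female replicate 5 and 2 in female replicate 6 (ENSMUSG00000023403, chr6:49395604-49469501, plus strand). Here too both groups were at or under the limit. A pseudogene, Gm17060, lies in an intron of Stk31 and shares no exon base with it.

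Slc25a31 encodes the ADP/ATP carrier of testis mitochondria (ENSMUSG00000069041, chr3:40708855-40726096, plus strand). Reads numbered 6, 0, 1 and 1 in MD1 replicates 1 to 4, against 0 to 14 in WT with a median of 2.5. In CPM the MD1 libraries spanned 0 to 0.285 and the WT libraries 0 to 0.569, so the MD1 range lay inside that of WT. The pooled ratio was 0.580, with a counting interval of 0.229 to 1.31, and the log2 fold change was -0.72 (edgeR adjusted p = 0.743). It was -1.59 without MD1 replicate 1, -0.35 without MD1 replicate 2 and -0.25 without WT replicate 3.

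**Figure D3:**
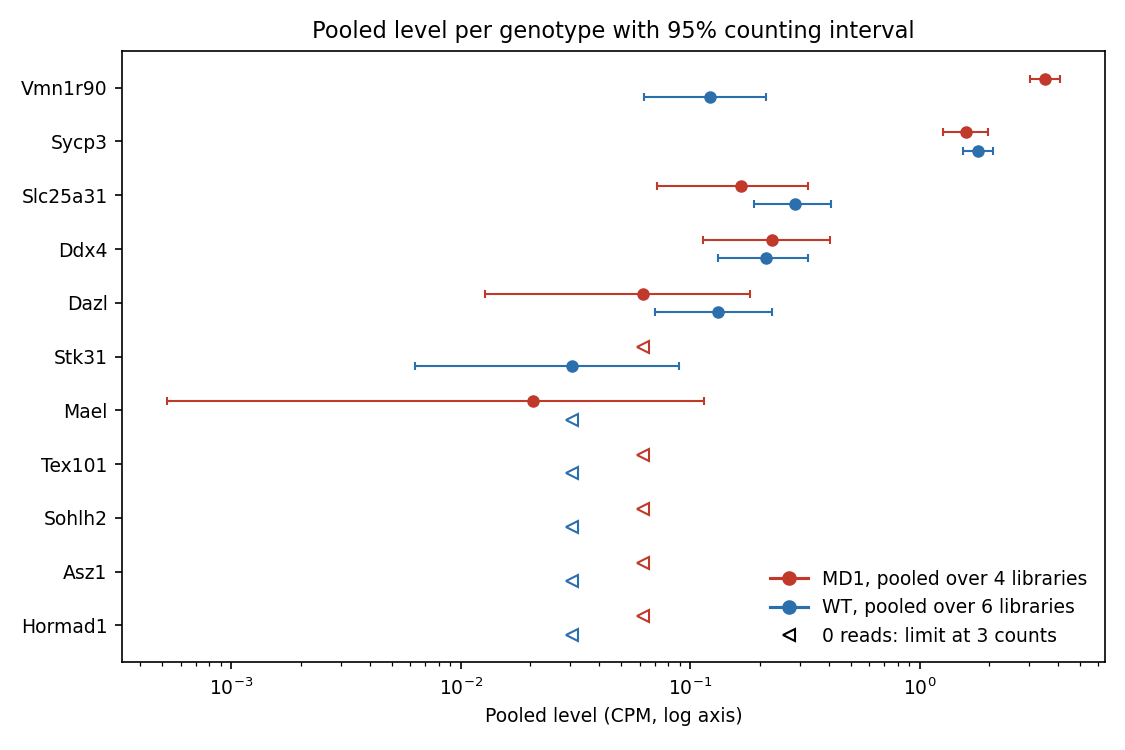
Pooled level of each member in CPM on a log axis, MD1 (red) above WT (blue), with 95% Poisson intervals of the summed counts; open arrows mark the limit of 3 counts where a group had 0 reads. The intervals of MD1 and WT overlap in every member with reads in both groups. Those of Vmn1r90, the called gene of lowest WT level, lie apart at 3.51 and 0.122 CPM. Being called, after passing the low-count filter through its MD1 reads, was a condition of its choice.

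For scale, the called autosomal gene with the lowest WT level was Vmn1r90, annotated as a vomeronasal receptor. Vmn1r90 was picked from the called genes, so a difference between the genotypes was a condition of the choice. It also passed the low-count filter through its MD1 reads, a filter that Dazl, Ddx4 and Slc25a31 did not pass. Vmn1r90 had 111, 14, 16 and 29 reads in MD1 replicates 1 to 4, against 0 to 5 reads in WT with a median of 1. The genotypes did not overlap in CPM, and the log2 fold change was 4.66 (SE 0.58, edgeR adjusted p = 0.0104). Pooled, Vmn1r90 stood at 0.122 CPM in WT, close to Dazl at 0.132 CPM and below Ddx4 at 0.214 CPM and Slc25a31 at 0.285 CPM. The same 3 members stood at 0.0620, 0.227 and 0.165 CPM in MD1, where Vmn1r90 reached 3.51 CPM. In GENCODE, 22.5% of the exon bases of Vmn1r90 are shared with the pseudogene Nlrp5-ps on the same strand, so its reads are uncertain as to their gene.

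Sycp3, a component of the axial element of the synaptonemal complex, was the one member with reads in every library (ENSMUSG00000020059, chr10:88459569-88473236, plus strand). It had 41, 17, 2 and 17 reads in MD1 replicates 1 to 4, against 17 to 42 reads in WT with a median of 28.5. In CPM these were 1.95, 1.69, 0.483 and 1.29 in MD1, against 1.603 to 2.29 in WT with a median of 1.66. Replicates 3 and 4 of MD1 lay below every WT library and replicates 1 and 2 within the WT range. The mean was 1.35 ± 0.64 CPM in MD1 and 1.79 ± 0.28 CPM in WT (SD, n = 4 and 6). The log2 fold change was -0.29 (SE 0.30), its 95% interval ran from -0.94 to 0.36, and the edgeR adjusted p was 0.712. With 1 library left out it ranged from -0.52 (without MD1 replicate 1) to -0.11 (without MD1 replicate 3, the shallowest).

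Sycp3 reads may not all be from this gene. Of its 1264 exon bases, 660 (52.2%) are shared with Chpt1, which lies on the opposite strand and encodes an enzyme of phosphatidylcholine synthesis. The labels name a kit that does not mark strand, with which reads of either gene in the shared part look alike. The study's methods also name a stranded kit for its RNA libraries, and whether the counting used strand is not known. None of the other 9 members shares an exon base with another gene. Chpt1 was at 24.1 to 40.0 CPM in MD1 and 29.4 to 37.9 CPM in WT, with a log2 fold change of -0.01 (edgeR adjusted p = 0.977). Sycp3 amounted to 5.38%, 4.23%, 2.00% and 4.15% of Chpt1 in MD1 replicates 1 to 4, against 4.55% to 6.30% in WT. The mean of this ratio was 3.94 ± 1.41% in MD1 and 5.36 ± 0.60% in WT. The shared 660 bases are 7.93% of the exon bases of Chpt1. How much of the Sycp3 count came from Chpt1 was not tested.

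**Figure D4:**
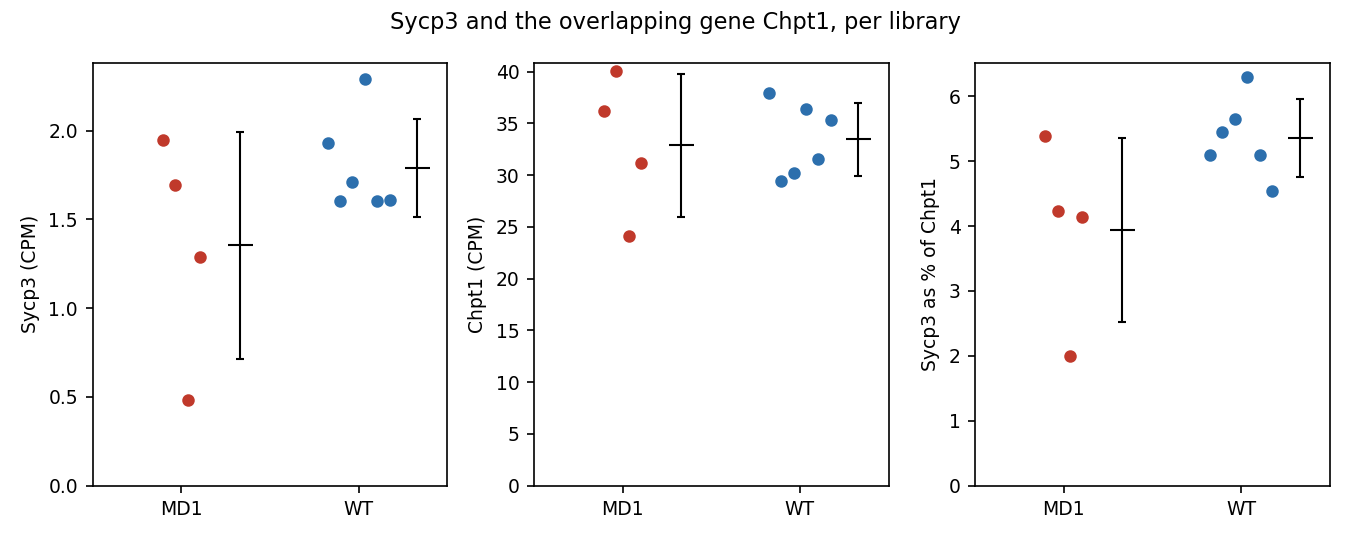
Sycp3 and Chpt1 in CPM, and Sycp3 as a percentage of Chpt1, in each library (points, MD1 left, WT right), with mean and SD (n = 4 and 6). Chpt1 spans a similar range in both genotypes, and the lowest Sycp3 point, 0.483 CPM, is MD1 male replicate 3, the shallowest library.

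Per kilobase of exon, and with any reads of Chpt1 included, Sycp3 had the highest pooled level of the members, 1.26 RPKM in MD1 and 1.42 RPKM in WT. Over all libraries 47.3% of autosomal protein-coding genes were lower. Slc25a31 (0.0777 RPKM in MD1, 0.134 RPKM in WT), Ddx4 (0.0754 RPKM in MD1, 0.0709 RPKM in WT) and Dazl (0.0162 RPKM in MD1, 0.0346 RPKM in WT) came next, then Stk31 and Mael. Within libraries, Sycp3 was above Slc25a31 per kilobase in 10 of 10. Slc25a31 was above Ddx4 in 8 of 10, and Ddx4 was above Dazl in 7 of the 8 libraries with a read of either gene. These are a few reads per library, and the order was not tested.

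Other germline genes gave a wider view of the same class, 59 genes in 3 lists. Of these, 12 passed the filter and 0 were called by edgeR in either direction, with 3 at an unadjusted p under 0.05 (25.0%, against 9.79% of all genes), and 0 by DESeq2 or limma-voom. With no filter the unadjusted count was 4 of 46 (8.70%, against 9.38% of all genes). The log2 fold change was above 0 in 8 and below 0 in 4, with a median of 0.31, against 0.0029 over all genes. In the piRNA list 5 of 16 were tested, with a median of -0.04. All 5 tested of the 23 meiosis genes had values above 0, with a median of 0.80. Hsf2bp, among these 5 and among the 3 at an unadjusted p under 0.05, passed the filter through its high MD1 libraries. With no filter, 20 meiosis genes were tested, 13 above 0 and 7 below, with a median of 0.40. Of the 20 regulators and gametogenesis genes 2 were tested, 1 on each side of 0. None of these lists had a called gene.

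The genes with the largest fold changes were 4 of meiosis and Rnf17, a Tudor domain protein of spermatids. Stag3, the meiotic cohesin subunit, was at 20.9, 12.6, 10.1 and 34.8 CPM in MD1 replicates 1 to 4, against 8.98 to 13.5 CPM in WT with a median of 11.5. Sycp1, the transverse filament of the synaptonemal complex, was at 10.7, 8.07, 4.83 and 21.8 CPM in MD1, against 5.45 to 7.75 CPM in WT with a median of 6.63. In both genes the 2 highest values were the MD1 libraries labelled female, of which replicate 1 carries Y-linked reads against its label. The highest, MD1 female replicate 4, is the library apart in erythroid, hypoxia and forebrain markers, and both libraries were high in yolk sac endoderm markers, replicate 1 more so. The log2 fold changes were 0.81 (SE 0.29) for Stag3 and 0.80 (SE 0.31) for Sycp1, each with an edgeR adjusted p of 0.496. Without MD1 replicate 4 the values were 0.42 for Stag3 and 0.32 for Sycp1, and without both of these libraries 0.03 and 0.02. The part that the marker differences have in them was not tested.

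Hsf2bp, a meiotic recombination factor, had a different distribution. It stood at 0.570, 1.39, 1.45 and 1.67 CPM in MD1 replicates 1 to 4, against 0.321 to 0.773 CPM in WT with a median of 0.406. MD1 replicates 2, 3 and 4 lay above every WT library, at 6 to 22 reads in MD1 and 4 to 19 in WT. In the fit of all libraries, Hsf2bp passed the low-count filter through these MD1 libraries and WT replicate 3. Without WT replicate 3 it failed that filter, and 11 other germline genes were tested there. The log2 fold change of Hsf2bp was 1.30 (SE 0.41, edgeR adjusted p = 0.496), and 1.51 without both MD1 libraries labelled female. Prdm9, the methyltransferase that places recombination hotspots, had 0.46 (edgeR adjusted p = 0.527), and Rnf17 had 0.42 (edgeR adjusted p = 0.610). Without MD1 replicate 4 they were at 0.25 and 0.16, without both MD1 libraries labelled female at 0.07 and -0.46, and Rnf17 was at 0.63 without MD1 replicate 2.

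**Figure D5:**
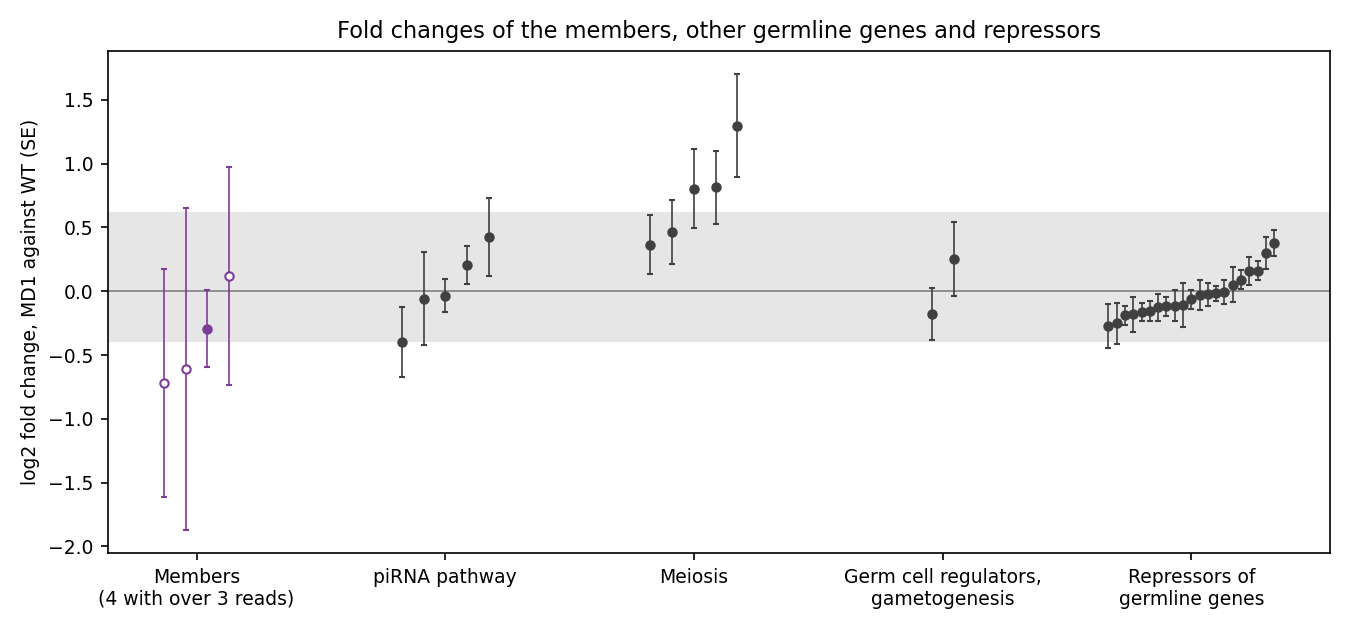
Log2 fold changes, MD1 against WT, with standard errors, for the 4 members with over 3 reads (open points from the fit with no filter), the tested genes of 3 lists of other germline genes and the repressors. The grey band holds the 5th to 95th percentile of all tested genes, -0.39 to 0.61; 3 meiosis genes lie above it, no repressor lies outside it, the open points come from another fit and are not to be read against it, and none of the plotted genes was called.

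Repressors of germline genes were all expressed. The 21 genes of PRC1.6, DNA methylation and H3K9 methylation summed to 3189 to 3702 CPM in MD1 and 3555 to 3697 CPM in WT. All 21 passed the filter and 0 were called by edgeR, DESeq2 or limma-voom, with 5 at an unadjusted p under 0.05 in edgeR (23.8%, against 9.79% of all genes). With no filter that count was 3 (14.3%, against 9.38%). Values were above 0 in 6 and below 0 in 15, with a median of -0.06. Cbx3, which encodes the heterochromatin protein HP1 gamma, averaged 36.5 ± 5.1 CPM in MD1 and 28.0 ± 1.6 CPM in WT (SD, n = 4 and 6), with 0.38 as its log2 fold change (SE 0.10, edgeR adjusted p = 0.496). Mga, the scaffold of PRC1.6, had 0.30 (edgeR adjusted p = 0.498), with 311 CPM in MD1 female replicate 4 and 188 to 211 CPM in the other MD1 libraries, against 170 to 194 CPM in WT. Without MD1 female replicate 4 the value for Mga was 0.11.

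The DNA methyltransferases that act around implantation were below 0 in log2 fold change and not called. Dnmt3a averaged 213 ± 60 CPM in MD1 and 257 ± 36 CPM in WT, at -0.27 (edgeR adjusted p = 0.575). Dnmt3b averaged 46.4 ± 13.9 CPM in MD1 and 54.7 ± 3.2 CPM in WT, at -0.25 (edgeR adjusted p = 0.566). For both, the lowest library was MD1 female replicate 4, at 132 and 30.4 CPM. Without it the log2 fold changes were -0.09 for Dnmt3a and -0.11 for Dnmt3b, and without MD1 replicate 3 Dnmt3b was at -0.43. Without both MD1 libraries labelled female Dnmt3b was at -0.0023. Ehmt2, the H3K9 methyltransferase G9a, averaged 248 ± 21 CPM in MD1 and 283 ± 14 CPM in WT, at -0.19 (edgeR adjusted p = 0.496).

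Genes beside the members were taken as the nearest gene on each side that passed the filter, so silent genes in between were skipped and expression was a condition of the choice. The 10 members had 20 such neighbours, at 1263 to 640740 bases. Their mean levels ran from 0.798 to 129 CPM in MD1 and from 0.730 to 141 CPM in WT, with medians of 33.3 CPM in MD1 and 36.0 CPM in WT. Of the 20, 11 had log2 fold changes above 0 and 9 below, between -0.43 and 0.36 with a median of 0.03. None was called by edgeR, and 0 had an unadjusted p under 0.05.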

How the data were processed

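RNA of the frontonasal prominence was sequenced from 4 MD1 and 6 WT libraries, prepared, per the labels, with a TruSeq kit that does not mark strand, although the study's methods also name a stranded kit. According to the study's methods and the submitters' processing notes, Trim Galore 0.4.4 removed adapters, HISAT2 2.0.5 mapped the reads to GRCm38.p6 and SeqMonk counted them per gene. The notes also name bcl2fastq, and whether SeqMonk used strand was not given in the sources used here. The authors deposited raw counts per gene and log2 RPKM values (reads scaled to library size and to transcript length, on a log2 scale). Columns of the mean signal per genotype, averaged by the authors over its libraries, were not used. Of 35591 rows, 49 repeated a gene identifier and the row with more reads was kept; 27 symbols turned into dates were restored from the identifier.

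Counts were compared by edgeR's quasi-likelihood test (edgeR 4.0.16, R 4.3.3) after filterByExpr (minimum count 10) and TMM, with no covariate and Benjamini-Hochberg adjustment over 15452 autosomal genes, threshold 0.05, which follows the study's edgeR-based test without sex chromosomes. Members under the filter were taken from the same test on the 22864 autosomal genes with at least 1 count. limma 3.58.1 and DESeq2 1.42.0 were alternatives. Intervals are exact, Poisson for pooled levels and conditional binomial for ratios, at 95%, and a count of 0 was taken to allow 3 counts. Exon structures are from GENCODE M21, in which all 10 members have the start and end of the table. Promoter windows are from RefSeq, and where a gene had several the most upstream was used. RPKM values in the text were computed from pooled counts and those exon lengths.

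The members and lists were chosen with earlier results of these data known. The text names every member and, of the other germline genes and of the repressors, the 5 with the largest absolute log2 fold change among those tested, besides any called. Depth was 4195119 to 24125084 counts per library.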

Additional observations from a re-analysis of the deposited data

Results flagged for a closer look

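Both results listed here were raised by MD1 male replicate 2, the one MD1 library in which the gene had a read. Dazl stood at 0.299 CPM there (3 reads) and at 0 in the other 3 MD1 libraries. Mael stood at 0.0996 CPM (1 read) and at 0 in the other 3. The same library had the highest Ddx4 level of all 10, 0.598 CPM from 6 reads. In all, 34 groups of values were examined for a sample far from the rest and 2 were raised. The rule always raises a group in which only 1 library has a read, even a single read. Its nominal rate of about 1 group in 20 therefore does not apply to these 2.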

How the results depend on the processing

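Calls among the members, the other germline genes and the repressors stayed at 0 under all 20 alternatives of each. The number of autosomal genes called, 12, was 51 with DESeq2, 4 with limma on the deposited log2 RPKM, and 6 without both MD1 libraries labelled female. It ranged from 4 to 13 when 1 library was left out. It was 4 without MD1 replicate 1 or WT replicate 2, 5 without WT replicate 6, 6 without WT replicate 3, and 7 without MD1 replicate 3, WT replicate 1 or WT replicate 5.

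The log2 fold change of Ddx4 (0.12) turned to -0.38 with limma-voom, and ranged from -0.85 (without MD1 replicate 2) to 0.57 over the libraries left out, with -0.0064 without WT replicate 3 and -0.00054 without WT replicate 5. Without both MD1 libraries labelled female, Dazl turned to 0.69 and Rnf17 to -0.46. Sycp3 stayed below 0, between -0.65 and -0.11, with adjusted p from 0.511 to 0.953. The causes were not tested.

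Replicate numbers are shared between genotypes, and the labels state no pairing. The correlations of same-numbered libraries ran from -0.118 to 0.0497, and no MD1 library correlated best with its own number. Weak correlations cannot exclude a pairing, so whether these libraries share more than a number is not known. With the replicate number as a block, 0 autosomal genes were called and Ddx4 was at -0.35.

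Depth limits every member, Sycp3 least, and 0 reads do not show absence.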

Other observations

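Chosen after the values were seen, Henmt1, the methyltransferase that modifies piRNA ends, had nearly the read counts of Slc25a31 in each library. In MD1 replicates 1 to 4 Henmt1 had 7, 0, 1 and 0 reads and Slc25a31 had 6, 0, 1 and 1. In WT replicates 1 to 6 Henmt1 had 2, 6, 14, 4, 2 and 0 reads and Slc25a31 had 2, 7, 14, 3, 2 and 0. These counts are not scaled to depth, and WT replicate 3, with the most reads of both genes, is the deepest library. Whether the likeness goes beyond depth was not tested. Both genes lie on chromosome 3, at 108940059 for Henmt1 and 40708855 for Slc25a31, and 14.7% of the exon bases of Henmt1 are shared with Gm9857 on the opposite strand.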
